A study of Mus musculus with 18 samples.

Results

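The replication-dependent histone genes encode the linker histone H1 and the core histones H2A, H2B, H3 and H4 that package newly made DNA. They were found on the array as all probes besides controls whose gene name starts with Hist1h, Hist2h, Hist3h or Hist4h. This gave 47 of the 35527 gene names and 51 of the 55681 probe names. H1 had 6 probes, H2A 15 probes for 14 genes, H2B 11, H3 8, and H4 11 probes for 8 genes. By the mm9 positions of the array, 37 of the probes lay on chromosome 13, 10 on chromosome 3, 3 on chromosome 11 and 1 on chromosome 6. RNA had been measured on 18 single-colour Agilent arrays. Myofibers, the multinucleated cells of skeletal muscle, came from untreated female CD1 mice aged 3 months, and each array held the nuclear or the cytoplasmic RNA of a pool of 5 to 10 fibers. The muscles were soleus, the extensor digitorum longus or EDL, and the tibialis anterior or TA, which gave 6 groups of 3 arrays: EDL cytoplasm, EDL nuclei, soleus cytoplasm, soleus nuclei, TA cytoplasm and TA nuclei. The question of the series was which RNAs lie mainly in the nuclei or mainly in the cytoplasm of these fibers. By the labels EDL and soleus pools came from the same mice, and TA cytoplasm 1 and TA cytoplasm 2 shared mouse 5. Such p-values measure the spread between these pools.

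Histone mRNAs of this kind are made in S phase, when DNA is copied, and most end in a short stem-loop instead of a poly(A) tail. The stem-loop binding protein Slbp holds that end during cleavage, export and translation. Some histone genes also give longer, polyadenylated transcripts that run past the stem-loop, and these are known from cells that no longer divide. Nuclei within a myofiber do not replicate their DNA. The labelling kit named in the study starts cDNA synthesis at poly(A) tails, so the form of the 3′ end bears on what the arrays can read. In bulk RNA, fewer cells of a type and less RNA per cell cannot be told apart.

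The probes lay at different places along their transcripts. Of the 51 probes, each 60 bases long, 32 lay before the stem-loop position of their class, 5 held the whole stem-loop, 2 held an edge of it with at least 10 of its 16 bases, and 12 lay after it. For H2A, H2B and H3 the position was the last base of a whole stem-loop seen in any probe of the class, the furthest if several. It was applied to every gene of the class, whose own stem-loop may lie elsewhere. For H1 and H4, which had no probe with a stem-loop, the position was taken as 100 bases past the last stop codon seen in a probe. The histone stem-loop motif, searched on the probe strand, was present in 12 of all 55681 probes (0.0216%, or 0.0305% on either strand). Windows of 30 bases from the probes that lead the results are shown 5′ to 3′, with the stem-loop or a poly(A) signal (ATTAAA) in capitals. Hist2h2bb and Hist1h3i held the stem-loop and differed between fractions in opposite directions. Hist1h2be, Hist1h2ac and Hist2h2be lay far past the position of their class, and for the last 2 the first 30 bases of the probe are shown with nothing marked.
Hist2h2bb: acccaaaaGGCTCTTTTCAGAGCCacttta
Hist1h3i: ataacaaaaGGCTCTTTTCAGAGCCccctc
Hist2h2aa1: taaaaaGGCTCTTTTCAGAGCCacccactg
Hist1h2be: gtactgttcattATTAAAgcattcctgatt
Hist1h2ac: taaaacttgacagtatgtgaacagctgaag
Hist2h2be: aagtctgttcctgaactggcattagagccc
AATAAA or ATTAAA, searched together on the probe strand, was present in 4 of the 51 histone probes and in 13.7% of all probes (6 histone probes and 18.6% on either strand).

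The Hist1h2be probe (chr13:23675610-23675669, minus strand, mm9) began at base 2376 of its transcript and the Hist1h2ac probe (chr13:23773343-23773402, minus strand) at base 2427. The Hist2h2be probe (chr3:96026893-96026952, plus strand) began at base 1850. The RefSeq gene models of GRCm38.p6, used here for names and lengths, give Hist1h2ac 487 bases, so that its probe lies beyond that model, as do 7 other histone probes. Hist2h2bb (chr3:96074056-96074115, plus strand) and Hist1h3i (chr13:21874784-21874843, minus strand) were read at the stem-loop, within the last bases of models of 493 and 483 bases.

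Probes at the end of the H2A coding sequence were nearly alike, so their signal may be shared between genes. Of the 51 probes, 8 shared a stretch of at least 30 bases with a probe of another histone name, and 6 of these were H2A. The ends of 4 H2A genes are shown with the bases that differ from Hist1h2ah in capitals.
Hist1h2ah: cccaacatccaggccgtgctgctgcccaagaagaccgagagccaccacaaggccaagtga
Hist1h2af: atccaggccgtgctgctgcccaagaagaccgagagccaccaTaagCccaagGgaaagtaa
Hist1h2an: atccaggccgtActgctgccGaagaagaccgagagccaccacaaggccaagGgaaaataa
Hist2h2aa2: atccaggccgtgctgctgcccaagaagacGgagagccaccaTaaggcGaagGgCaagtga
Over 54 shared positions, Hist1h2af and Hist1h2an differed from Hist1h2ah at 3 bases each and Hist2h2aa2 at 5. Values of these H2A genes are therefore uncertain as to which gene they come from. Hist1h3c and Hist1h3f also shared at least 30 bases.

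Most histone probes were detected in both fractions of every muscle. The scanner software called 41 of the 51 (80.4%) well above background on all 18 arrays, against 46.3% of all probes. All 11 H4 probes were in this set, 5 of 6 H1, 12 of 15 H2A, 7 of 11 H2B and 6 of 8 H3. No array was well above background for 6 probes (11.8%, against 15% of all probes), namely Hist1h1d, Hist1h2ae, Hist2h2ab, Hist3h2ba, Hist1h3a and Hist1h3g, which are named here because the count is small. Among these, Hist1h3a and Hist1h3g held the whole stem-loop and Hist1h2ae an edge of it. The other 4 probes, Hist1h2ac, Hist1h2bp, Hist2h2bb and Hist3h2bb-ps, were well above background on 17, 8, 13 and 12 arrays.

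After quantile normalization, a smaller share of histone probes than of all probes was called different between nuclei and cytoplasm, and with no scaling between arrays the order of the shares turned. Levels are log2 intensities after quantile normalization, a difference is nuclei minus cytoplasm in log2, and each adjusted p is that of limma's moderated test with Benjamini-Hochberg adjustment over all probes tested, called under 0.05. Over the 3 muscles, 14 of the 45 histone probes tested (31.1%) were called, against 69.8% of all 40541 probes tested. Of these 14, 7 were higher in nuclei (background 31.2%) and 7 in cytoplasm (background 38.6%). With no scaling 84.4% of the histone probes were called, 34 higher in nuclei and 4 in cytoplasm, against 71.3% of all probes, and the median of all probes moved to 0.42 from -0.08. With each array centred on its 75th percentile the split was 5 against 9 (31.1% called, against 73.1% of all probes), and the median of all probes moved to -0.30. The median histone difference was 0.25. The median size of a difference, regardless of direction, was 0.37 over the 45 histone probes and 0.68 over all probes.

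Within single muscles the counts were lower. Of 45 histone probes, EDL had 2 with a higher nuclear level (background 20.0%) and 4 with a higher cytoplasmic level (26.5%), where 46.6% of all probes were called. Soleus had 1 (18.7%) and 4 (21.7%), where 40.3% of all probes were called. TA had 5 (19.2%) and 6 (33.5%), where 52.7% of all probes were called. The spread between replicates was small in nuclei, with a median SD over histone probes of 0.10 to 0.12, and 0.37 to 0.66 in cytoplasm. Over all probes the median SD was 0.12 to 0.16 in nuclei and 0.28 to 0.42 in cytoplasm. In TA cytoplasm it was 1.47 over H2A and 1.34 over H1 probes. The median SE of the difference over the 3 muscles was 0.21 for histone probes and 0.16 for all probes. The part of this spread in the lower share of histone probes called was not tested. When the 3 nuclear arrays per muscle were replaced by their mean as 1 sample, 1 histone probe was called higher in nuclei (Hist2h2bb) and 4 higher in cytoplasm over the 3 muscles.

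By class, H2B had 3 of 9 probes higher in nuclei and 2 higher in cytoplasm over the 3 muscles, beside 31.2% and 38.6% of all probes, so its 55.6% called lay below the 69.8% of all probes. H2A had 2 of 13 higher in nuclei and 1 in cytoplasm, H3 had 2 of 7 and 1, and H1 had 2 of 5 higher in cytoplasm. H4 had 1 of 11 probes called, Hist1h4h, higher in cytoplasm.

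**Figure D1:**
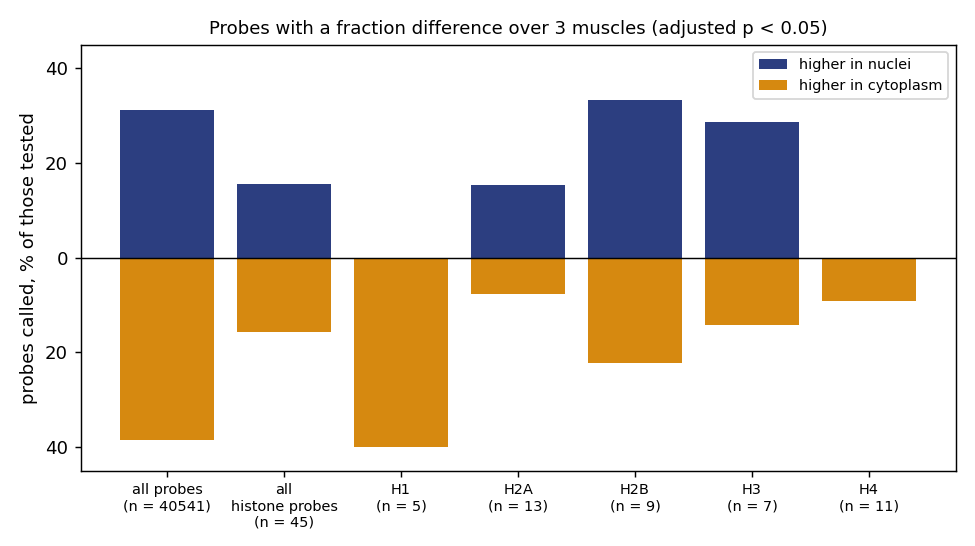
Share of probes tested, in percent (vertical axis), with an adjusted p under 0.05 over the 3 muscles, for all probes, all histone probes and each histone class (horizontal axis, n tested in brackets). Bars above 0 are probes higher in nuclei, bars below 0 probes higher in cytoplasm, and H4 has a single probe called of 11.

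Hist1h2be, a core histone H2B gene, was called higher in cytoplasm in each muscle. Over the 3 muscles its difference was close to that of Hist1h2ac, and in EDL and soleus the difference of Hist1h2ac was the larger. In EDL its level was 9.11, 9.19 and 9.42 in cytoplasm and 7.59, 7.63 and 7.57 in nuclei. In soleus the cytoplasmic arrays read 8.81, 8.44 and 9.06 and the nuclear arrays 7.49, 7.47 and 7.55. In TA they read 10.03, 9.65 and 8.85 against 7.46, 7.51 and 7.45. Every cytoplasmic array lay above every nuclear array in each muscle. Over the 3 muscles the difference was -1.65 (SE 0.14, adjusted p = 8.8e-08 by limma, 3.13-fold).

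Hist1h2ac encodes an H2A histone and was dimmer. EDL cytoplasm read 6.31, 6.87 and 6.40, soleus cytoplasm 6.05, 5.42 and 5.90, and TA cytoplasm 6.56, 5.99 and 5.88. EDL nuclei read 5.25, 4.66 and 4.26, soleus nuclei 3.95, 4.22 and 4.28, and TA nuclei 4.80, 4.63 and 4.63. The fractions did not overlap in any muscle. The difference was -1.63 (SE 0.15, limma adjusted p = 2.43e-07, 3.1-fold).

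Hist2h2be is an H2B gene of the chromosome 3 cluster, as is Hist2h2bb. EDL cytoplasm read 7.17, 8.29 and 7.03, soleus cytoplasm 7.25, 6.18 and 7.10, and TA cytoplasm 8.07, 7.24 and 7.04. EDL nuclei read 6.35, 6.75 and 6.04, soleus nuclei 5.88, 5.91 and 5.69, and TA nuclei 5.80, 5.79 and 6.00. All nuclear arrays of a muscle lay below its cytoplasmic arrays. The difference was -1.24 (SE 0.21, limma adjusted p = 6.96e-05, 2.36-fold).

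Hist1h1t is the linker histone known from testis, and its probe (chr13:23788343-23788402, plus strand) lay in the last part of its 735-base RefSeq model. EDL cytoplasm read 9.65, 9.95 and 9.90, soleus cytoplasm 9.85, 9.19 and 9.80, and TA cytoplasm 10.44, 10.18 and 9.43. EDL nuclei read 8.68, 8.66 and 8.58, soleus nuclei 8.14, 8.25 and 8.47, and TA nuclei 8.22, 8.55 and 8.28. The fractions were separate in each muscle here too. The difference was -1.40 (SE 0.14, limma adjusted p = 5.09e-07, 2.63-fold).

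These 4 were the histone probes whose fractions did not overlap in each of the 3 muscles. Over all probes measured on every array, 35.9% met that condition, 21.4% with cytoplasm higher. None of the histone probes higher in nuclei met it, as 14.5% of all probes did. The 4 probes stayed called and higher in cytoplasm under each of the 27 alternatives computed, with ranges of -1.76 to -0.90 for Hist1h2be, -1.98 to -0.73 for Hist1h2ac, -1.38 to -0.66 for Hist2h2be and -1.49 to -0.61 for Hist1h1t.

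**Figure D2:**
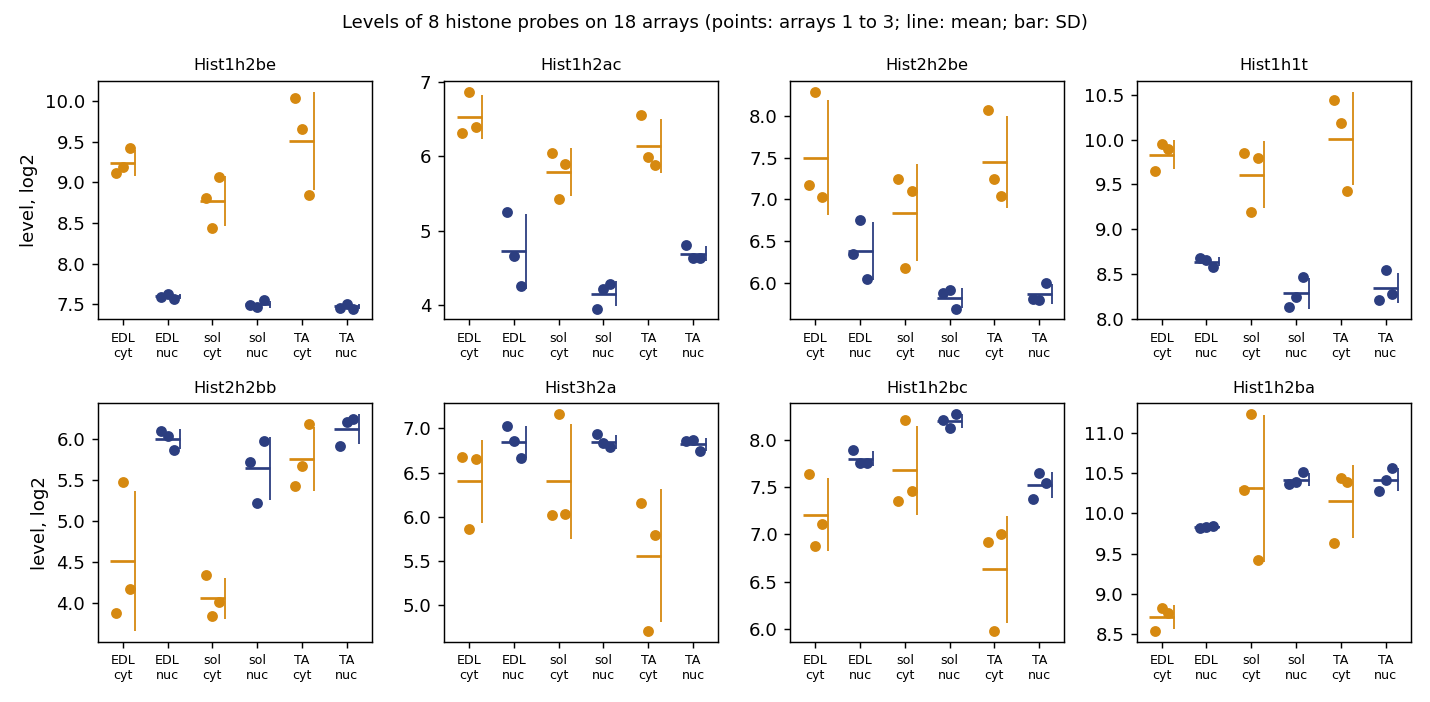
Level in log2 intensity (vertical axis) of 8 histone probes in the 6 groups (horizontal axis), with a point for each of arrays 1 to 3, a line at the mean and a bar for the SD; cytoplasm is orange and nuclei blue. In the upper row Hist1h2be, Hist1h2ac, Hist2h2be and Hist1h1t have every cytoplasmic array above the nuclear arrays of the same muscle, while in the lower row the fractions of Hist2h2bb, Hist3h2a, Hist1h2bc and Hist1h2ba overlap in at least 1 muscle.

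Hist1h2bp, another H2B gene, could not be tested, since its nuclear arrays had no signal above background in any muscle. Its cytoplasmic levels were 4.58, 5.92 and 5.14 for EDL, 4.66, 5.04 and 5.33 for soleus, and 5.78, 5.01 and 3.71 for TA. Against the lowest signal counted as well above background, this made cytoplasm at least 2.21-fold higher in EDL, at least 1.96-fold in soleus and at least 1.44-fold in TA, where 2 of the 3 cytoplasmic arrays were well above background. Its probe also lay after the stem-loop position of its class, base 487, beginning at base 506. That position came from the Hist2h2bb probe, and where the stem-loop of Hist1h2bp lies was not read. It was singled out after its values were seen.

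In the other direction Hist2h2bb, an H2B gene, was higher in nuclei in EDL and soleus. It and the other probes named as higher in nuclei, except Hist1h2ba, were chosen after their values were seen. In EDL, Hist2h2bb read 3.88, 5.47 and 4.17 in cytoplasm, with 1 of the 3 arrays well above background, and 6.10, 6.04 and 5.87 in nuclei. In soleus it read 4.34, 3.84 and 4.01 in cytoplasm, none of them well above background, and 5.72, 5.22 and 5.98 in nuclei. In TA it read 5.42, 5.67 and 6.18 in cytoplasm and 5.91, 6.21 and 6.24 in nuclei. The fractions were separate in EDL and soleus and overlapped in TA. In soleus nuclei were at least 2.28-fold higher (limma adjusted p = 0.002). Over the 3 muscles it was called higher in nuclei (limma adjusted p = 9.15e-05), but no size is given, since the soleus cytoplasm has only a bound.

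Hist3h2a, an H2A gene on chromosome 11, was higher in nuclei by 0.72 over the 3 muscles (SE 0.21, limma adjusted p = 0.00537). Its cytoplasmic arrays read 6.68, 5.86 and 6.65 for EDL, 6.02, 7.16 and 6.03 for soleus, and 6.16, 4.71 and 5.80 for TA. Its nuclear arrays stayed within 6.67 to 7.03 in all muscles. The fractions were apart in TA and overlapped in EDL and soleus. Hist1h2bc was higher in nuclei by 0.67 (SE 0.16, limma adjusted p = 0.00194), with cytoplasm at 7.64, 6.88 and 7.11 for EDL, 7.35, 8.21 and 7.46 for soleus, and 6.92, 5.98 and 7.00 for TA. Nuclei of Hist1h2bc read 7.89, 7.76 and 7.75 in EDL, 8.21, 8.13 and 8.27 in soleus, with 7.37, 7.65 and 7.54 in TA, so that the fractions overlapped in soleus alone. Hist1h2aa, an H2A gene known from testis, was higher in nuclei by 0.67 (SE 0.19, limma adjusted p = 0.005). With EDL and soleus only, Hist3h2a and Hist1h2aa were not called, at 0.45 and 0.39 (limma adjusted p = 0.132 and 0.152).

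The remaining calls toward nuclei were each lost when certain single arrays were left out. Hist1h2ba, the H2B gene known from testis, was higher in nuclei by 0.50 over the 3 muscles (SE 0.19, limma adjusted p = 0.0301), of which EDL gave 1.13, soleus 0.11 and TA 0.26. That call was lost without EDL cytoplasm 1 (limma adjusted p = 0.0532), TA cytoplasm 1 (0.061), soleus nuclei 3 (0.0511) or TA nuclei 3 (0.0531). Hist2h3c2-ps and Hist1h3f of the H3 class were higher in nuclei by 0.43 and 0.24 (limma adjusted p = 0.0291 and 0.047). The Hist1h3f call was lost under 18 of 27 alternatives, among them 14 of the 18 arrays left out in turn (0.18 to 0.25, limma adjusted p = 0.0503 to 0.0995) and the replicate number as a block (limma adjusted p = 0.0617). That of Hist2h3c2-ps was lost under 8, among them 5 arrays left out in turn, EDL cytoplasm 2, soleus cytoplasm 1 and 3, TA cytoplasm 3 and TA nuclei 3 (0.34 to 0.41, limma adjusted p = 0.0528 to 0.0643). With EDL and soleus only they stood at 0.24 for Hist2h3c2-ps (limma adjusted p = 0.324) and 0.05 for Hist1h3f (limma adjusted p = 0.755).

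Among the remaining probes higher in cytoplasm, also named after their values were seen, Hist1h3i had the widest spread. In EDL it read 7.10, 8.93 and 4.87 in cytoplasm and 6.46, 4.45 and 4.53 in nuclei, which overlapped. In soleus it read 5.65 to 5.84 against 4.36 to 5.21, and in TA 5.50 to 7.55 against 4.71 to 5.24, both without overlap. The difference over the 3 muscles was -1.37 (SE 0.46, limma adjusted p = 0.0145), and within a single muscle none was called. Hist1h4h and the linker histone gene Hist1h1a were lower in nuclei by smaller amounts, with differences of -0.43 (SE 0.12, limma adjusted p = 0.00418) and -0.39 (SE 0.12, limma adjusted p = 0.00925). Both turned to the other sign with no scaling between arrays, at 0.33 and 0.32.

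The brightest probes of H1, H3 and H4 were not called between fractions. For H1 these were Hist1h1c, at -0.09 (SE 0.27, interval -0.67 to 0.49), and Hist1h1b, at 0.33 (SE 0.28, interval -0.27 to 0.93), where the interval is the 95% confidence interval of the difference. For H3 they were Hist1h3d, at 0.36 (interval -0.20 to 0.92), and Hist2h3c1, at 0.31 (interval -0.49 to 1.10). The brightest H4 probe, on Hist1h4i, read 14.25 to 14.79 on all 18 arrays and differed by -0.16 (interval -0.34 to 0.02). It began at base 484, beyond the 403-base RefSeq model of that gene, and shared 21 bases with a probe of Galns. Its mean over all arrays was 14.47, against 10.29 for the second Hist1h4i probe, so which RNA it reads is uncertain. The second Hist1h4i probe differed by -0.03 (interval -0.53 to 0.48), and the 2 probes of Hist1h4k by 0.01 (interval -0.43 to 0.46) and 0.12 (interval -0.25 to 0.48). A difference of the size called for Hist1h4h lay within 3 of these 4 intervals, in one direction or the other. For H2A, Hist1h2ah and Hist1h2af differed by 0.53 (interval -0.17 to 1.23) and 0.52 (interval -0.12 to 1.15), and for H2B, Hist1h2bm by 0.37 (interval -0.17 to 0.91). Without TA cytoplasm 1 these stood at 0.19, 0.21 and 0.16. Hist1h1c then stood at 0.14, Hist1h1b at 0.05, Hist1h3d at 0.11 and Hist2h3c1 at -0.05.

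Along the transcript, the share of probes called after the stem-loop position was near that of all probes, and the share before it was lower. Over the 3 muscles 6 of 9 were called after it (66.7%, 3 higher in each fraction), 6 of 31 before it (19.4%, 3 in each) and 2 of 4 over the whole stem-loop, beside 69.8% of all probes. Of the 4 probes that did not overlap in any muscle, 3 lay after the stem-loop position of their class. Genes, not positions alone, differ between these sets, and the difference between the shares was not tested. Where a gene had 2 probes, their differences over the 3 muscles were close, at 0.38 and 0.51 for Hist1h2ak and 0.17 and 0.07 for Hist2h4. Both probes of these genes lay before the position, and in TA alone those of Hist1h2ak stood at 0.09 and 0.8. The Hist1h4i pair, which spans the position, gave -0.03 before it and -0.16 after it. Which RNA the later Hist1h4i probe reads is uncertain.

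**Figure D3:**
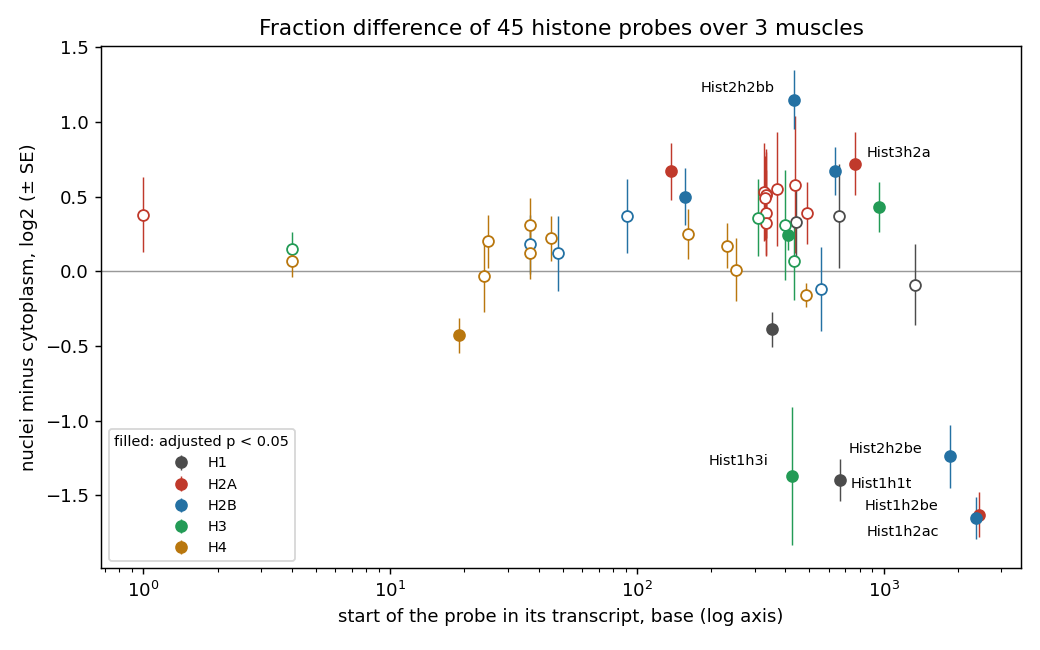
Difference over the 3 muscles, nuclei minus cytoplasm in log2 with its SE (vertical axis), against the base at which each of 45 histone probes begins in its transcript (horizontal log axis), coloured by class and filled where the adjusted p is under 0.05. Hist1h2be, Hist1h2ac and Hist2h2be, which begin at bases 2376, 2427 and 1850 of their transcripts, lie between -1.65 and -1.24, and most probes that begin earlier lie near or above 0. The point of Hist2h2bb rests on soleus cytoplasm signals that were not well above background.

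The muscles were then compared. None of 45 histone probes passed the limma test of the interaction of muscle and fraction, which 1.55% of all probes passed; 2 had an unadjusted p under 0.05, and the smallest adjusted p were 0.274 for Hist2h2bb and 0.284 for Hist1h3f. Between soleus and EDL nuclei 0 of 45 histone probes were called by limma (background 1.56%), with 2 at an unadjusted p under 0.05. Between soleus and EDL cytoplasm 1 of 46 was called (background 1.42%). This was Hist1h2ba, which read 8.54, 8.82 and 8.76 in EDL cytoplasm and 10.29, 11.23 and 9.42 in soleus cytoplasm. All 3 soleus arrays lay above the EDL arrays, and the difference was 1.61 (SE 0.33, limma adjusted p = 0.0255). Its nuclei read 9.82 to 9.84 in EDL and 10.36 to 10.51 in soleus, a difference of 0.59 that was not called (limma adjusted p = 0.672). The cytoplasmic call was lost without EDL cytoplasm 1, 2 or 3 or without soleus cytoplasm 2, and with no scaling between arrays.

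Many histone probes followed the scan day. TA cytoplasm 2 and 3 and all TA nuclei were scanned on day 3 of scanning, whereas TA cytoplasm 1 was scanned with the EDL and soleus cytoplasm, on the same slide. Of 44 histone probes measured on every array, 13 had all 5 arrays of scan day 3 above the other 13 arrays (29.5%, against 6.23% of all probes), and 1 had them all below (against 3.32%). Those above were 8 of 13 H2A probes, 2 of 5 H1 (Hist1h1b and Hist1h1e), 1 of 9 H2B (Hist1h2bm), 2 of 6 H3 (Hist1h3d and Hist2h3c1) and 0 of 11 H4. The 6 H2A probes that shared at least 30 bases with another histone name were all among these 8. The count and the 29.5% may therefore include a shared H2A signal more than once. Each of the 13 lay before the stem-loop position. The probe below was Hist2h2aa1, which held the stem-loop and read 9.06 to 9.96 on scan day 3.

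Hist1h2ah shows the size of this step. It read 11.52 to 12.97 on the EDL and soleus arrays, 12.33 on TA cytoplasm 1, 15.21 and 15.58 on TA cytoplasm 2 and 3, and 15.07 to 15.29 in TA nuclei. Hist1h2af read 12.16, 14.77 and 15.02 on TA cytoplasm 1 to 3, and Hist2h3c1 8.96, 11.91 and 12.47. Within one group of one muscle, the first array thus lay with the other muscles and the other two with TA nuclei. Over the 13 H2A probes the median of TA cytoplasm 2 and 3 minus TA cytoplasm 1 was 2.54, over H4 -0.32 and over all probes -0.31. TA cytoplasm 1 and 2 share mouse 5 by the labels. For the other TA arrays muscle and scan day cannot be told apart.

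Some genes of DNA replication showed the same step. Of 19 listed S phase genes measured on every array, 8 had the 5 arrays of scan day 3 above all others, beside 6.23% of all probes, and 11 did not. The 8 were Rrm2, Asf1b, Mcm6, Mki67, Chaf1a, Mcm7, Gins2 and E2f1, with means on scan day 3 that were 1.12 to 5.53 higher than on the other arrays. Among the 11, the difference was 0.15 for Pcna, the sliding clamp of the DNA polymerases, 0.16 for Rrm1, 0.05 for Tyms, 0.30 for Ccne1 and -0.25 for Cdc6. The rest of the 11 were higher by more, with 2.69 for Mcm5, 1.28 for Chaf1b, 1.26 for Mcm4, 0.66 for Cdt1, 0.5 for Mcm3 and 0.45 for Tk1. Rrm2, a subunit of the enzyme that makes deoxyribonucleotides, read 3.15 to 6.03 in EDL and soleus, 4.11, 10.24 and 11.08 on TA cytoplasm 1 to 3, and 9.25 to 10.01 in TA nuclei. Mcm6, part of the replicative helicase, read 7.39, 11.51 and 12.38 on TA cytoplasm 1 to 3, and Mki67, a marker of dividing cells, 6.28, 9.15 and 10.00. The summed signal of the S phase list was 2230 to 3640 on the EDL and soleus arrays, 2980 on TA cytoplasm 1, 10900 and 18600 on TA cytoplasm 2 and 3, and 6730 to 13400 in TA nuclei. A list of 7 dividing-cell markers, 1 of them well above background on no array, summed to 257 to 1250 in EDL and soleus, 843 to 4030 in TA cytoplasm and 1510 to 2900 in TA nuclei. Of its 4 members measured on every array, 2 had the arrays of scan day 3 above all others, Mki67 and Birc5. On TA cytoplasm 1 to 3 Birc5 read 8.27, 10.89 and 11.26, whereas Ccnb1 read 7.49, 7.48 and 7.85 and Cdk1 8.01, 8.05 and 7.58. A list of 7 satellite cell markers, also with 1 well above background on no array, summed to 782 to 1870 in EDL and soleus, 539 to 762 in TA cytoplasm and 1390 to 1520 in TA nuclei. Its members went different ways on TA cytoplasm 1 to 3: Pax7, the transcription factor that defines satellite cells, read 3.83, 5.68 and 4.88, and Vcam1 5.36, 6.33 and 6.67. Cd34, the brightest of the list and also known from endothelium, read 8.90, 8.50 and 9.19, Sdc4 6.00, 4.77 and 5.01, and Chodl 4.78, 4.27 and 3.36. The part of these cells or of the scan day in the histone levels was not tested.

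**Figure D4:**
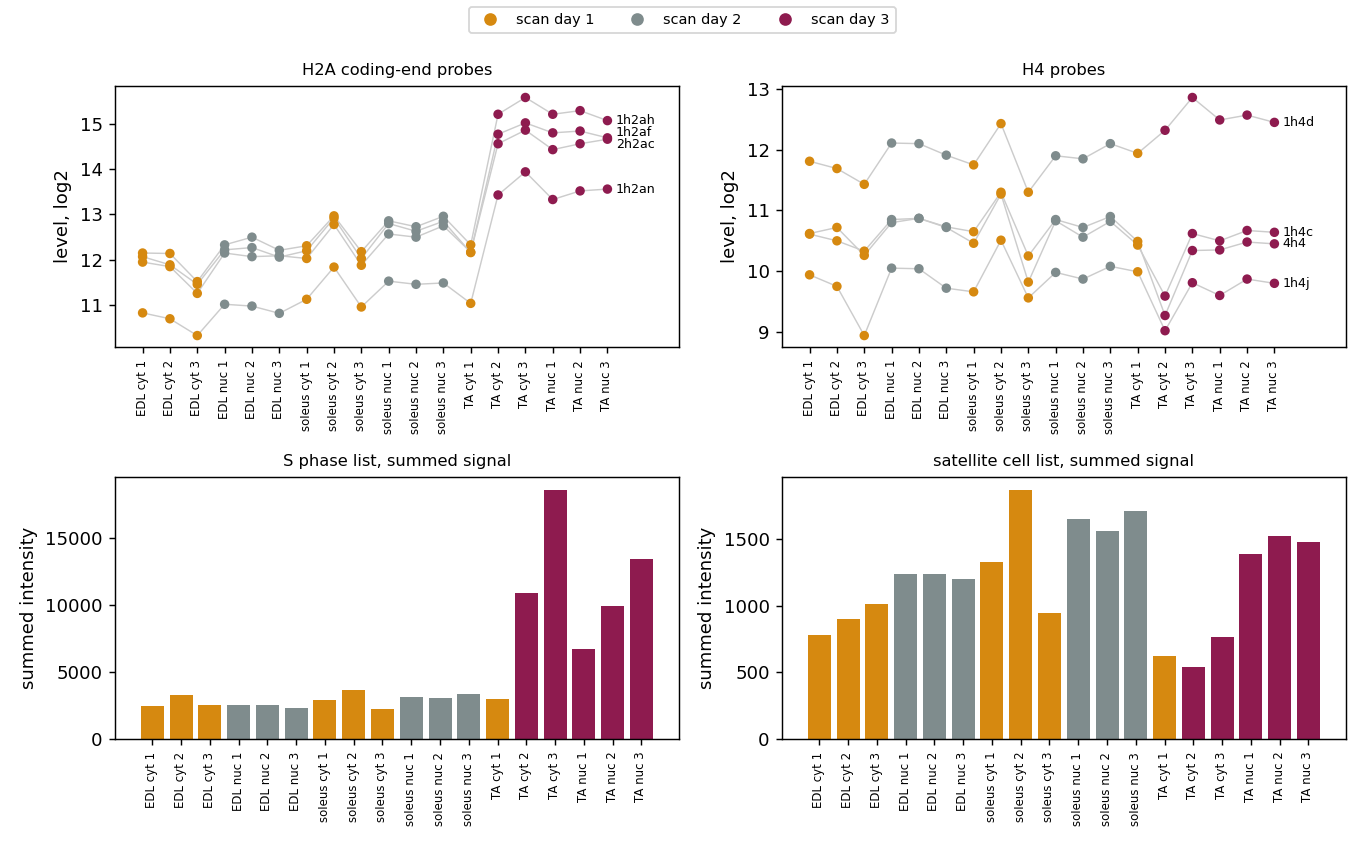
Level in log2 intensity of 4 H2A and 4 H4 probes (upper row) and summed intensity of the S phase and satellite cell lists (lower row) on each of the 18 arrays (horizontal axis), coloured by scan day; cyt is cytoplasm and nuc nuclei. The H2A probes and the S phase list are high on TA cytoplasm 2 and 3 and on TA nuclei but not on TA cytoplasm 1. The satellite cell sum lies at 539 to 762 on the 3 TA cytoplasm arrays; its brightest gene is Cd34, and its dimmer members Pax7 and Vcam1 were higher on TA cytoplasm 2 and 3 than on TA cytoplasm 1.

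The 4 leading probes were also compared within a single scan day. They had been chosen on all arrays for fractions that did not overlap in each muscle, TA included. Their direction on any part of these arrays was therefore fixed by that choice, and the values below are not a separate check. With the TA arrays of day 3 alone, nuclei minus cytoplasm was -1.77 for Hist1h2be (limma adjusted p = 4.44e-05), -1.24 for Hist1h2ac (limma adjusted p = 0.00201), -1.27 for Hist2h2be (limma adjusted p = 0.01) and -1.46 for Hist1h1t (limma adjusted p = 0.00032), with 51.3% of all probes called. On the slide that held both TA fractions, 8 histone probes were higher in nuclei and 5 higher in cytoplasm, these 4 and Hist1h4h, with 47.9% of all probes called in either direction. The only cytoplasmic array on that slide was TA cytoplasm 2, so both counts rest on a single cytoplasmic library and decide nothing about the fractions. The differences on that slide were -2.17 for Hist1h2be, -1.3 for Hist1h2ac, -1.37 for Hist2h2be and -1.83 for Hist1h1t. With EDL and soleus alone, 5 histone probes were higher in cytoplasm, these 4 and Hist1h3i, and 3 were higher in nuclei, Hist1h2ba, Hist1h2bc and Hist2h2bb, with 59.7% of all probes called. In EDL and soleus all cytoplasm lay on one slide and all nuclei on another, so that fraction and slide cannot be told apart there. Hist1h1c, at 0.46 in TA with all arrays, was called higher in nuclei at 1.15 on scan day 3 alone (limma adjusted p = 0.0158), and its TA cytoplasm arrays read 10.57, 7.89 and 9.08.

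The machinery that makes and removes histone mRNA was measured beside its substrates. Of 18 tested genes of 3′ end processing and decay, 10 were higher in nuclei and 3 higher in cytoplasm over the 3 muscles, beside 31.2% and 38.6% of all probes. Slbp was higher in nuclei by 0.48 (limma adjusted p = 0.000999), as were Xrn1, the 5′ to 3′ exonuclease, by 1.15 and Srrt, a partner of the nuclear cap-binding complex, by 1.00. Higher in cytoplasm were Zfp473, a zinc finger protein that acts with the U7 particle on histone pre-mRNA, at -1.44, Cstf2, a subunit of the cleavage stimulation factor, at -1.20, and Sympk, the scaffold protein symplekin.

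Of the histones made outside S phase, 3 of 10 tested genes were higher in nuclei and 1 higher in cytoplasm, H2afx, beside 31.2% and 38.6% of all probes. Of 9 of them measured on every array, 5 had the arrays of scan day 3 above all others, beside 6.23% of all probes, H2afx, H2afj, H2afy2, H2afz and H1fx. An H2afj probe of the array shared 38 bases with the Hist2h2aa2 probe, so the H2afj signal may be shared between these genes. Of 10 tested histone chaperones, the proteins that carry histones to DNA, 3 were higher in nuclei and 2 higher in cytoplasm, and of 20 S phase genes 7 and 3, so that the shares higher in nuclei lay near the 31.2% of all probes. As a check of the fractions, 5 of 5 listed nuclear RNAs were higher in nuclei, with a median difference of 2.78. The 9 listed myofiber genes, whose mRNAs code for proteins of the fiber, were well above background on at least 9 arrays, and 7 of them were also higher in nuclei and 0 in cytoplasm by limma, with a median difference of 0.66 and summed signals of 171000 to 222000 in nuclei and 108000 to 187000 in cytoplasm. Markers of other cells differed between the fractions too. Higher in nuclei were 7 of 7 endothelial genes, with sums of 6090 to 9080 in nuclei and 2020 to 6850 in cytoplasm, 5 of 6 connective tissue genes, at 37900 to 73600 and 19600 to 45500, 4 of 5 Schwann cell genes, at 728 to 2060 and 276 to 768, and 2 of 4 tested satellite cell genes. Higher in cytoplasm were 5 of 7 macrophage genes, at 3490 to 7690 in cytoplasm and 2830 to 3290 in nuclei, 2 of 4 erythroid genes and 2 of 5 tested dividing-cell genes. Their part in the histone differences was not tested.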

How the data were processed

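RNA of nuclear and cytoplasmic myofiber fractions was measured in 18 samples, 3 per group. Per the file headers, the deposited scanner files hold a background-corrected intensity per spot from Feature Extraction 10.7.3.1, unscaled between arrays, with probe positions on mm9. The authors also deposited a quantile-normalized intensity matrix with values for 3687 features, of which 4 are histone probes; it served as an alternative, and 0 of its columns lacked a sample.

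Intensities were taken to log2, spots without the positive-and-significant flag or marked as outliers were set to missing, arrays were quantile-normalized, and spots of a probe were averaged. The 6 group means were fitted with limma 3.58.1 in R 4.3.3 (12 residual and 3.27 prior degrees of freedom). A probe was tested with values on at least 2 of 3 arrays in each group, and p-values were 2-sided and adjusted by Benjamini and Hochberg over all probes tested, with a threshold of 0.05. Signal was well above background on 58.6% to 71.2% of spots; the number of arrays limits the precision. Where no array of a group was well above background, a fold is a lower bound.

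The histone genes and the other gene lists were chosen with earlier results of these data known. Genes were named by rule: the 2 brightest probes of each class, the 4 largest non-overlapping differences in each direction, and members called between muscles; others are marked as chosen afterwards. RefSeq names (GRCm38.p6) matched 50 of 51 probes. Replicate numbers pair EDL with soleus through shared mice; deviations of same-numbered arrays correlated with r between -0.111 and 0.131 across 35528 probes. The fits were tested on simulated data. Python 3.11.15, numpy 2.4.6, pandas 2.3.3, matplotlib 3.10.9 and the package data.table (version 1.17.8) were also used. Alternatives covered scaling, background correction, flags, values required, pairing, nuclear arrays as 1 sample, Significance Analysis of Microarrays, left-out arrays and slides.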

Additional observations from a re-analysis of the deposited data

How the results depend on the processing

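Counts of histone probes are given as higher in nuclei against higher in cytoplasm. With no scaling they were 17 against 2 in EDL, 26 against 1 in soleus, 8 higher in nuclei in TA and 34 against 4 over the 3 muscles, with 4 in the interaction, 1 between soleus and EDL nuclei and 0 between the cytoplasms. With normexp 1 was called between the nuclei and 2 between the cytoplasms. With nuclear arrays averaged they were 0 against 1 in EDL, 0 against 0 in soleus, 0 against 1 in TA and 1 against 4 over the 3 muscles. In TA 8 were higher in nuclei with no filter on low values and with slide as a block, and 0 by Significance Analysis of Microarrays, which called 2 in soleus. The count for the slide with both TA fractions is not repeated here, since its only cytoplasmic array was TA cytoplasm 2. With EDL and soleus only, 3 were higher in nuclei; that setting and the slide block were chosen after seeing the data. In the authors' matrix 1 of 4 probes was called, against 0 here (Hist3h2bb-ps, 0.57, limma adjusted p = 0.025). The replicate block pairs EDL and soleus by mouse. In TA it joins the fractions by replicate number only, so that TA cytoplasm 1 and 2, which share a mouse by the labels, fall in different blocks. It gave 2 against 4 in EDL, 1 against 3 in soleus, 5 against 6 in TA and 6 against 7 over the 3 muscles. The block ended the call of Hist1h3f (limma adjusted p = 0.0617) and of no other named gene. Leaving out each array gave 2 to 3 against 3 to 6 in EDL, 1 to 3 against 3 to 4 in soleus, 3 to 11 against 5 to 7 in TA, 4 to 11 against 7 to 8 over the 3 muscles and 0 to 2 between the cytoplasms. TA had 11 higher in nuclei without TA cytoplasm 3 and 3 without TA nuclei 2, and over the 3 muscles there were 11 without TA cytoplasm 3 and 4 without TA nuclei 3. Soleus had 3 without soleus cytoplasm 2 and 2 without TA cytoplasm 1, and the cytoplasms had 2 without soleus cytoplasm 3. Small differences changed sign: Hist1h1c to 0.68 (no scaling) and 0.14 without TA cytoplasm 1 (single arrays left out, -0.31 to 0.14), Hist2h3c1 to -0.05 without TA cytoplasm 1 (-0.05 to 0.53), Hist1h1a and Hist1h4h to 0.32 and 0.33 (no scaling), a Hist1h4k probe to -0.22 (75th percentile) and as far as -0.12 and 0 without single arrays, and a Hist1h4i probe to 0.03 (75th percentile), 0.74 (no scaling), 0.04 (well above background only), 0.05 (no filter), 0.01 (EDL and soleus only) and up to 0.15 without single arrays (-0.15 to 0.15). The cause of these changes was not tested.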
